A study of Homo sapiens with 6 samples.

Results

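The genes of polyamine metabolism were examined in LNCaP cells, a human prostate cancer cell line, exposed to gedunin, a limonoid natural product of the neem family of trees. The set comprised 9 genes named for their role in the pathway: ODC1, AMD1, SRM, SMS, SAT1, SMOX, OAZ1, OAZ2 and AZIN1. Every probe set annotated to one of these genes alone was taken, which gave 19 of the 22215 probe sets on the Affymetrix array and 9 of 12165 named genes. Cells in RPMI medium with 10% serum received 20 µM gedunin or DMSO, the solvent, for 6 h, and total RNA of each culture was hybridised to 1 array. The labels give 3 gedunin arrays and 3 DMSO arrays as biological replicates, all labelled as the same cell line, at 1 dose and 1 time. The deposited values are RMA intensities (background-corrected, quantile-normalized and summarised over the probes of a probe set) on a linear scale. Medians of the arrays lay between 31.1 and 32.0, and the table has no detection calls.

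The array labelled DMSO 3 was kept out of the main comparison. It enters where the text says that all 6 arrays were fitted or gives its values apart, and in 1 further step. Where 1 probe set stands for a gene, it is the one with the highest mean over all 6 arrays, including the array labelled DMSO 3. Of 8 measured luminal prostate markers, 5 read at least 8-fold lower on it than on DMSO 1 and 2, and their summed intensity was 207 against 13217 to 14415 on the other 5 arrays. Of 11 measured leukocyte markers, 8 read at least 8-fold higher on it, with a summed intensity of 22152 against 233 to 238, while CD3D, CD3E and CD14 read 18.8 to 20.9 there. KLK3, which encodes prostate-specific antigen, read 24.5 on that array and 1702 to 2093 on the others. The comparison of gedunin with DMSO therefore used the 3 gedunin arrays and DMSO 1 and 2 (the 5-array fit), in which limma called 0 of the leukocyte markers (0 at an unadjusted p of 0.05). Among the 5 arrays the summed prostate markers were 13217 to 13864 with gedunin and 14140 and 14415 on DMSO 1 and 2. Of the 8 markers 2 were higher and 3 lower, against 8.22% and 9.35% of all genes. At an unadjusted p of 0.05 in limma it was 6 of 8, against 3692 of 12165 genes. KRT8 (log2 fold change 0.34) and KRT18 (0.47) were higher, and TMPRSS2 (-0.70), HOXB13 (-0.39) and SPDEF (-0.89) lower, so the near-equal sums hide changes of single markers. The part of these markers in the results below was not tested.

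Polyamines are small positively charged molecules that bind nucleic acids and are needed for growth, and the prostate is known for secreting large amounts of spermine. Ornithine decarboxylase (ODC1) makes putrescine from ornithine, and S-adenosylmethionine decarboxylase (AMD1) supplies the aminopropyl groups that spermidine synthase (SRM) and spermine synthase (SMS) attach in turn. Breakdown begins with acetylation by SAT1 or oxidation of spermine by SMOX. Antizymes (OAZ1, OAZ2) bind ornithine decarboxylase and send it to the proteasome, and the antizyme inhibitor (AZIN1), an inactive relative of ornithine decarboxylase, binds antizyme in its place. Much of this control acts on translation and protein turnover, which mRNA intensities do not measure.

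Transcripts of 3 of the 4 synthesis genes fell with gedunin, the transcript of the antizyme inhibitor rose, and neither breakdown gene nor either antizyme gene was called. ODC1 stood at 57.4% of its DMSO level, AMD1 at 67.7% and 63.8% on its separate probe sets, and SMS at 60.3%, while AZIN1 stood at 193% and 210.0%. By limma over all probe sets at an adjusted p of 0.05, 2 of the 19 member probe sets were higher and 4 lower, in 1 and 3 genes. Over the whole array 7.37% of probe sets were higher and 7.91% lower, together 15.3%. The median log2 fold change was 0.087 over the 19 member probe sets and -0.012 over all probe sets, while over the 9 genes, each by its brightest probe set, it was -0.072 against -0.017 over all genes. With members going both ways, these medians describe no shared direction. Of the 19, 4 had a mean below the array median, none of them was called, and 15 had a mean above it. In bulk RNA, fewer cells of a type and less RNA per cell cannot be told apart.

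**Figure D1:**
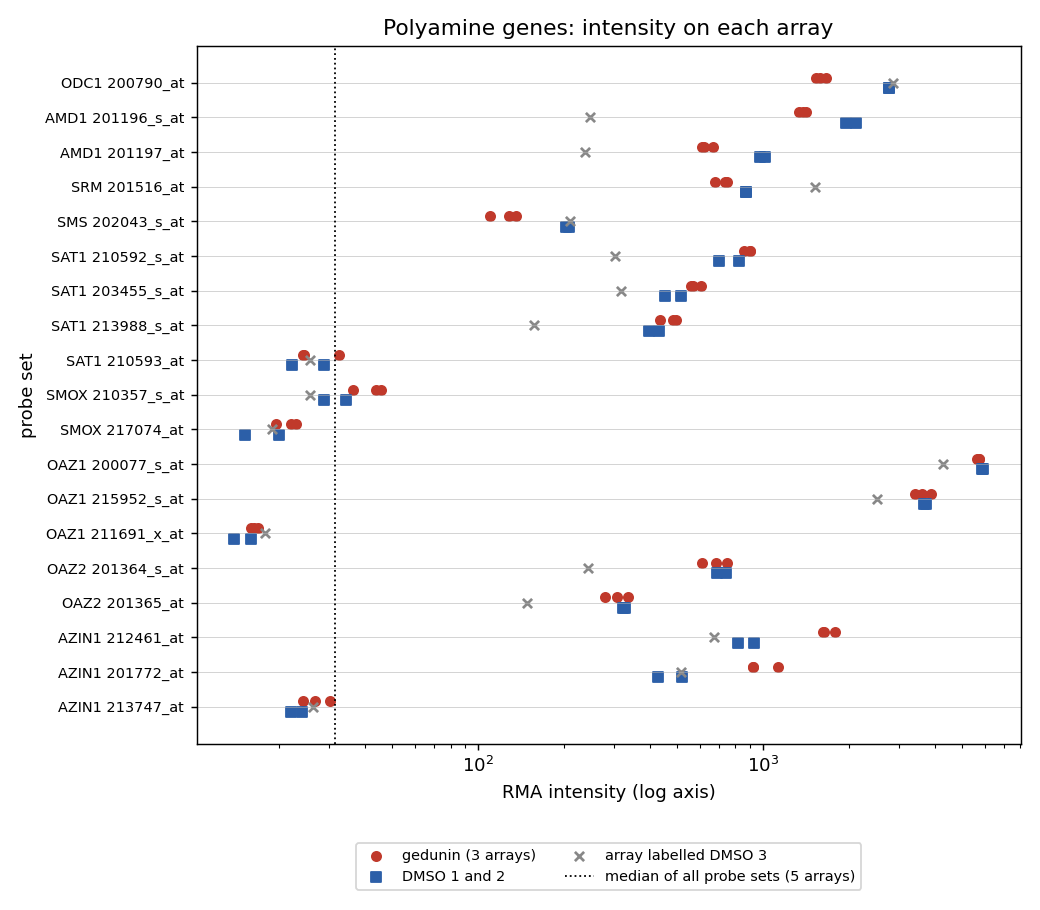
Intensity on each array (log axis) for the 19 probe sets of the 9 polyamine genes, with gedunin arrays as circles, DMSO 1 and 2 as squares, the array labelled DMSO 3 as a cross and the median of all probe sets as a dotted line. The gedunin circles lie left of the DMSO squares for ODC1, AMD1 and SMS and right of them for the AZIN1 probe sets above the median, and the cross departs from the DMSO squares most for AMD1.

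The sequences before the starts of the synthesis genes are shown because 3 of these genes fell together and the other, SRM, is the neighbouring step. The 250 bases before the annotated start are given 5′ to 3′ in the direction of transcription, from RefSeq on GRCh38.p14. They lie at chr2:10448328-10448577 (minus strand, ODC1), chr6:110874535-110874784 (plus strand, AMD1), chrX:21940459-21940708 (plus strand, SMS) and chr1:11060019-11060268 (minus strand, SRM). Capitals mark the letters CACGTG (the E-box that MYC and MAX bind), CCAAT (the CCAAT box) and TGACG (a half-site of ATF and CREB factors), searched on both strands.
ODC1: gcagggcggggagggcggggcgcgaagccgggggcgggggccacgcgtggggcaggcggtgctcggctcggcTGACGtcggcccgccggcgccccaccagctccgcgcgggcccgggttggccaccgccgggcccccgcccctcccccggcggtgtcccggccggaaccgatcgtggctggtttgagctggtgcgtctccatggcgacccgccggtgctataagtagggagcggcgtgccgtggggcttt
AMD1: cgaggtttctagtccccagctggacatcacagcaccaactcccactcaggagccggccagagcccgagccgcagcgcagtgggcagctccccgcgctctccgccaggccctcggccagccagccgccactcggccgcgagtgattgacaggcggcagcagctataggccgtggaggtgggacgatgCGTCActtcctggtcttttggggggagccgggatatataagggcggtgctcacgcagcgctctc
SMS: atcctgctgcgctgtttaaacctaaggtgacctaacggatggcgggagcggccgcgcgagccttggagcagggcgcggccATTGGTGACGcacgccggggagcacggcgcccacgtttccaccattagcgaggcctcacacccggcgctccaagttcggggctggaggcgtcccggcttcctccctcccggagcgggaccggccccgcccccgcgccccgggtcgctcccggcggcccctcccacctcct
SRM: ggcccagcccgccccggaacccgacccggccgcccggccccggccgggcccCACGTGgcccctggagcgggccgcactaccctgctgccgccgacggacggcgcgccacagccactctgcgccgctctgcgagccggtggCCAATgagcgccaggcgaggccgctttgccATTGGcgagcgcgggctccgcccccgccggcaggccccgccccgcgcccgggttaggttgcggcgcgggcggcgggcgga

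The RefSeq table held 10 such windows for 7 of the 9 genes, some of them overlapping because a gene has several starts. For a gene with several windows, the one with the highest start coordinate was printed. In the windows printed, counting back from -1 at the base before the start, ODC1 held TGACG from -178, AMD1 from -64 and SMS from -165. SMS also held CCAAT from -170, directly beside it, and SRM held CACGTG from -199 and CCAAT from -110 and from -80. Another ODC1 window, not printed, held CACGTG from -29 of its own start. Among all 35116 windows of this length, 21.2% held TGACG, 32.0% held CCAAT and 6.34% held CACGTG, and the GC content of the printed windows was 67.2% to 82.0% against a median of 58.0%. TGACG stood in 2 of the 2 ODC1 windows, 2 of the 3 AMD1 windows (a pair with starts 1 base apart) and the 1 window of SMS, and in 0 of the 4 windows of SRM, SAT1, OAZ1 and OAZ2. Of the same 10 windows, 5 held CCAAT (1 each of AMD1, SRM, SMS, SAT1 and OAZ1) and 2 held CACGTG (1 each of ODC1 and SRM). Whether any of these letters is more frequent in the genes that fell was not tested. SMOX and AZIN1, the 1 gene that rose, were not searched. A gene with several windows has more chances of a match than the 21.2% for a single window. That share was also not matched for the higher GC content of the printed windows. Searches for TGACNNNGC (antioxidant response element core), TGATGNAA (C/EBP-ATF element core) and GAANNTTC (paired heat shock units) gave 0 of the 10 windows, against 10.9%, 3.14% and 5.78% of all windows. These are matches of letters and no factor was measured at them.

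Among the synthesis genes, ODC1 had the largest fall. On its 1 probe set (200790_at) it read 1661, 1534 and 1583 with gedunin and 2767 and 2778 on DMSO 1 and 2. All gedunin arrays were lower than both DMSO arrays, and the gap was far wider than the spread within either group. The log2 fold change was -0.80 ± 0.09 (limma's moderated standard error, as for every ± below, n = 3 and 2 arrays; adjusted p = 1.90e-04, with a 95% interval of -0.99 to -0.61). Without any 1 of the 5 arrays it stayed between -0.83 and -0.77.

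AMD1 makes the aminopropyl donor for both synthases. Its probe set 201196_s_at read 1381, 1339 and 1415 with gedunin and 2126 and 1949 on DMSO 1 and 2. The second, 201197_at, read 609.7, 621 and 670.0 with gedunin against 972 and 1014. Both showed the same order of groups with no overlap. The log2 fold changes were -0.56 ± 0.09 (limma adjusted p = 0.00194) and -0.65 ± 0.09 (adjusted p = 8.95e-04). With the array labelled DMSO 3 included as a control, these values turned to 0.45 ± 0.86 (adjusted p = 0.849) and 0.039 ± 0.59 (adjusted p = 0.985), since AMD1 read 247 and 237 on that array.

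SMS, which converts spermidine to spermine, read 110.4, 128 and 135 with gedunin and 203 and 209 on DMSO 1 and 2. Its gedunin arrays were the more scattered, with a SD of 0.15 on the log2 scale against 0.030 for the DMSO arrays, yet none reached the DMSO values. The log2 fold change was -0.73 ± 0.10 (limma adjusted p = 0.00114). SRM, which makes spermidine, read 678, 747 and 738 with gedunin and 874 and 869 on DMSO 1 and 2. These groups did not overlap either, but the difference of -0.27 ± 0.09 had an adjusted p of 0.0690 (95% interval -0.47 to -0.076). SRM passed the threshold in 5 of the alternative analyses, with limma adjusted p from 0.0134 to 0.0441. It did not pass in the others. Among them limma adjusted p was 0.0943 with median centring, 0.112 with the replicate block and 0.0900 to 0.172 without 1 gedunin array. Whether SRM differed from the other synthesis genes in its response was not tested.

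Neither gene of polyamine breakdown was called. SAT1, the acetyltransferase that marks spermidine and spermine for export or oxidation, has 4 probe sets. The brightest, 210592_s_at, read 903, 897 and 859 with gedunin and 703 and 823 on DMSO 1 and 2. The others above the median read 569, 558 and 605 against 454 and 514 (203455_s_at), and 494, 436 and 483 against 397 and 429.9 (213988_s_at). Gedunin arrays were higher than both DMSO arrays on all 3, by log2 differences of 0.22 ± 0.10, 0.26 ± 0.09 and 0.19 ± 0.10 (limma adjusted p = 0.178, 0.107 and 0.246). With the trend and robust options of eBayes, 203455_s_at passed (adjusted p = 0.0448). The first of these differences rested on which DMSO array was used, at 0.11 without DMSO 1 and 0.33 without DMSO 2, and the second was 0.17 and 0.35. The remaining SAT1 probe set, 210593_at, read 22.3 to 32.6 on the 5 arrays, around the array median, and its groups overlapped.

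SMOX, spermine oxidase, was dim. Its probe set 210357_s_at read 43.8, 45.7 and 36.4 with gedunin and 34.4 and 28.7 on DMSO 1 and 2, and 217074_at read 15.2 to 23.0 throughout. The first gave a log2 difference of 0.41 ± 0.12 with an adjusted p of 0.0511, just above the limma threshold of 0.05, and the second 0.30 ± 0.13 (adjusted p = 0.155). The second was 0.50 without DMSO 1 (adjusted p = 0.0576) and 0.11 without DMSO 2 (adjusted p = 0.726). Under 5 alternatives the first passed, with adjusted p from 0.0166 to 0.0402, and over the other alternatives its p reached 0.349. Of those that passed, the fit with a replicate block and the fit without gedunin 3 gave the same estimate (0.51), so they are not separate checks. Intensities this close to the median have compressed folds under RMA, and whether SMOX is expressed was not settled by these values.

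The antizyme genes did not pass the test. OAZ1, the most widely expressed antizyme, read 5648, 5750.4 and 5719.9 with gedunin and 5921 and 5871 on DMSO 1 and 2 (200077_s_at). Its second bright probe set, 215952_s_at, read 3425, 3622 and 3897 against 3726 and 3687. The log2 differences were -0.047 (95% interval -0.23 to 0.14; limma adjusted p = 0.781) and -0.025 (-0.23 to 0.18; adjusted p = 0.902). OAZ1 probe set 211691_x_at, whose suffix marks probes that may bind other transcripts, read 13.9 to 16.9 and was not called. OAZ2, a further antizyme, read 682, 748 and 612 against 739.6 and 687 on 201364_s_at, and 336, 306 and 279 against 329 and 323 on 201365_at. Groups overlapped on both OAZ2 probe sets, with log2 differences of -0.072 (95% interval -0.31 to 0.16) and -0.089 (-0.31 to 0.13).

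AZIN1 was the 1 member that rose. Probe set 212461_at read 1791, 1621 and 1631 with gedunin and 816 and 932 on DMSO 1 and 2. Probe set 201772_at read 1133, 925 and 923 against 426 and 520.2. On both, the lowest gedunin array stood well above the higher DMSO array. The log2 fold changes were 0.95 ± 0.10 (limma adjusted p = 1.43e-04) and 1.07 ± 0.12 (adjusted p = 3.00e-04). Leaving out any 1 of the 5 arrays gave 0.85 to 1.04 and 0.93 to 1.21, all past the threshold. A further AZIN1 probe set, 213747_at, read 22.1 to 30.3, below the array median, and was not called (0.23 ± 0.11, adjusted p = 0.212).

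**Figure D2:**
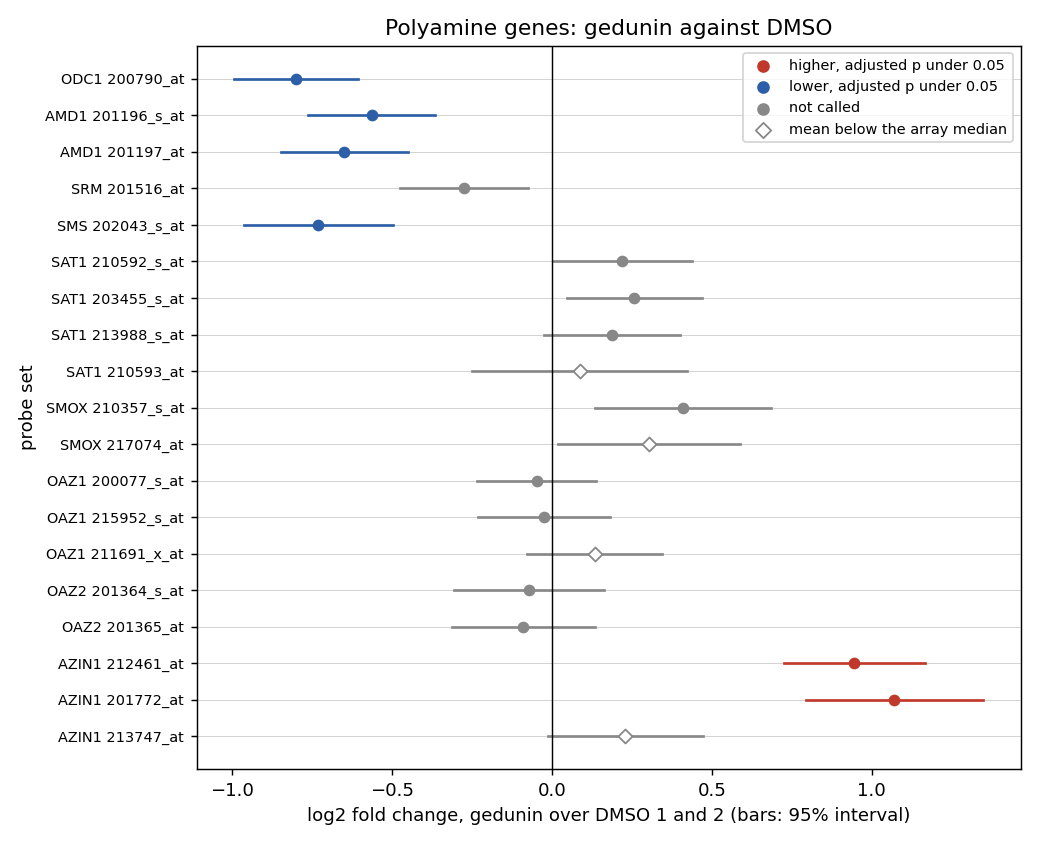
Log2 fold change of gedunin over DMSO 1 and 2 for the 19 probe sets, with 95% intervals from limma as bars, coloured by call, and open diamonds for probe sets with a mean below the array median. The 4 blue points of ODC1, AMD1 and SMS lie between -0.80 and -0.56, the 2 red points of AZIN1 at 0.95 and 1.07, and the grey points of OAZ1 and OAZ2 near 0.

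Of the 19 probe sets, 13 had gedunin arrays all on one side of both DMSO arrays, and 7 of these were not called. Over the whole array 42.8% of probe sets had such a separation, so with 3 against 2 arrays it says little by itself. With all 6 arrays in the fit, 4 member probe sets were called, those of ODC1 (-0.81), SMS (-0.74) and AZIN1 (1.07 and 1.03), against 1.40% of all probe sets. The array labelled DMSO 3 is unlike DMSO 1 and 2 in its prostate and leukocyte markers, so this fit is no replicate check of the calls. On that array ODC1 and SMS read 103% and 102% of DMSO 1 and 2, and AMD1 12.1% and 23.9%.

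The balance within an array was followed for 2 pairs of genes on their brightest probe sets. A difference between probe sets is not a ratio of transcript levels, and its shift between groups is what can be read. For breakdown against synthesis, SAT1 minus ODC1 on the log2 scale was -0.88, -0.77 and -0.88 with gedunin and -1.98 and -1.76 on DMSO 1 and 2. It was thus higher on every gedunin array, by 1.02. For inhibitor against antizyme, AZIN1 minus OAZ1 was -1.66, -1.83 and -1.81 with gedunin and -2.86 and -2.66 on DMSO 1 and 2, a shift of 0.99. Groups of 3 and 2 arrays that do not overlap always give the smallest p of a two-sided exact permutation test, 0.20 with the smaller tail doubled, so this test cannot pass 0.05 here and adds nothing to the values. Of the first shift, 0.22 was the difference of SAT1, which was not called, and 0.80 the fall of ODC1. Of the second, 0.95 was the rise of AZIN1 and 0.047 the difference of OAZ1.

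**Figure D3:**
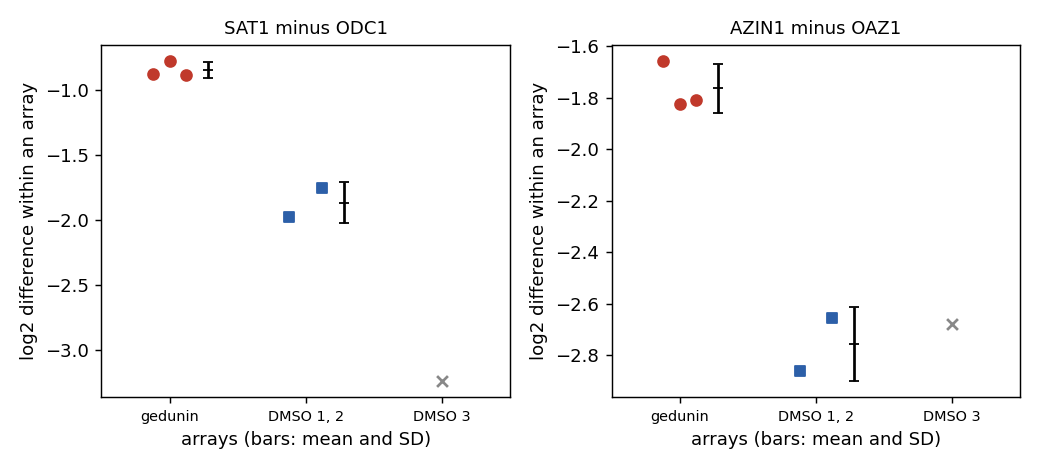
Log2 intensity of SAT1 minus ODC1 and of AZIN1 minus OAZ1 within each array (y axis), for gedunin, DMSO 1 and 2 and the array labelled DMSO 3 (x axis), with group mean and SD as bars. Gedunin arrays lie above DMSO 1 and 2 in both panels, by 1.02 and 0.99.

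The other genes around the pathway were described in 5 lists with 58 measured genes, each represented by its probe set with the highest mean. In the 5-array fit 11 of these were higher and 2 lower, against 8.22% higher and 9.35% lower among all 12165 genes, whose median log2 fold change was -0.017. Several of the genes that moved, SLC3A2, SLC7A5 and CTH among them, are known members of the amino acid response driven by ATF4, which earlier results of these data had shown to be high. The lists are therefore no independent evidence of its direction. EIF5A, DHPS and MAT2A have 3 probe sets each and MTAP 5, and only the 1 with the highest mean is given below for these genes.

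Further enzymes of polyamines and of hypusine, the spermidine-derived residue of the translation factor EIF5A, included no called gene. Of 8 measured genes, limma called 0 higher and 0 lower, with a median of -0.069, and 2 had an unadjusted p under 0.05, against 3692 of all 12165 genes. With 8.22% of all genes called higher and 9.35% lower, a count of 0 in a list this short says little about the list. EIF5A read 1964, 1947 and 1742 with gedunin and 2090.3 and 2566 on DMSO 1 and 2, and the log2 difference of -0.30 ± 0.11 had a limma adjusted p of 0.109. It was -0.45 without DMSO 1 (adjusted p = 0.0699) and -0.15 without DMSO 2 (adjusted p = 0.570). DHPS, the enzyme that begins hypusine synthesis, read 679, 679 and 639 against 759 and 758 (-0.19 ± 0.09, adjusted p = 0.191). Of the list, 3 genes lay below the array median.

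Enzymes of ornithine and arginine, which supply the substrate of ODC1, included 1 called gene. Of 12 measured genes 1 was higher and 0 lower, with a median of -0.040, and 1 of 12 is near the 8.22% of all genes called higher. PYCR1, which makes proline, rose by 0.31 ± 0.09 (limma adjusted p = 0.0443), from 381 and 349.7 to 446, 469.6 and 441. Its call was lost when any 1 of the 5 arrays was left out (adjusted p = 0.0624 to 0.264). OAT, ornithine aminotransferase, read 107, 106 and 124 with gedunin and 81.6 and 93.9 on DMSO 1 and 2. Its groups did not overlap, and its difference of 0.36 ± 0.11 had an adjusted p of 0.0512 in limma (0.0316 to 0.334 over its alternatives).

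In the methionine cycle and salvage list, which covers the supply of S-adenosylmethionine and the recycling of methylthioadenosine left by the synthases, 2 of 17 genes were higher and 0 lower, with a median of 0.028. Among all genes 8.22% were higher and 9.35% lower, so a count of 2 in 17 says little about the list. Both called genes belong to the branch that turns homocysteine into cysteine. CTH, cystathionine gamma-lyase, read 75.6, 101 and 52.6 with gedunin and 21.9 and 27.0 on DMSO 1 and 2, a rise of 1.60 ± 0.22 (limma adjusted p = 9.34e-04) from a level below the array median. CBS, cystathionine beta-synthase, read 1024, 1172 and 1053 against 739.6 and 767, a rise of 0.52 ± 0.09 (adjusted p = 0.00433), and its adjusted p was 0.0514 without DMSO 1. MAT2A, the S-adenosylmethionine synthetase of most tissues, had 0.15 ± 0.09 (adjusted p = 0.320) and MTAP, which salvages methylthioadenosine, 0.11 ± 0.14 (adjusted p = 0.664). The MTAP value turned to -0.11 without DMSO 1 and was 0.34 without DMSO 2.

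The transport list held the largest changes, those of the amino acid transport genes SLC3A2 and SLC7A5. Of 11 measured genes, 5 were higher and 1 lower, with a median of 0.10. Among all genes 8.22% were higher and 9.35% lower. The genes not called were ATP13A2 (0.069), SLC22A2 (0.077), SLC47A1 (0.10), SLC7A2 (-0.066) and CAV1 (0.083). Of these only ATP13A2 lay above the array median. SLC3A2, the heavy chain shared by several amino acid transporters, read 1151, 1149.8 and 1320.05 with gedunin and 209.6 and 214 on DMSO 1 and 2, a rise of 2.51 ± 0.10 (limma adjusted p = 1.56e-07). SLC7A5, its light-chain partner for large neutral amino acids, rose by 2.32 ± 0.10 (adjusted p = 3.88e-07), from 30.6 and 31.0 to 169, 139 and 154. Its DMSO values lay just below the array median with no detection calls, so the size of the rise is uncertain, and it was 1.86 on log2 of the value plus 16. SLC7A1, the cationic transporter that brings in arginine and ornithine, read 1949, 2043 and 2151 against 854 and 842, a rise of 1.27 ± 0.09 (adjusted p = 9.52e-06). Its dimmer probe sets had 1.36 and 1.03 (limma adjusted p = 1.18e-04 and 9.50e-04). On the others it had 0.63, 0.44 and -0.062, none called (limma adjusted p = 0.0523, 0.0646 and 0.771). ATP13A3, a P-type ATPase linked to polyamine uptake, fell by 0.47 ± 0.09 (adjusted p = 0.00634), from 115 and 119 to 85.4, 89.4 and 79.1, with an adjusted p of 0.0644 without DMSO 2. Its dimmer probe set had -0.24 ± 0.09 (adjusted p = 0.0973).

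The remaining higher transport genes had small changes, and the dimmer probe sets of GPC1 were not called (0.20 and 0.053, limma adjusted p = 0.327 and 0.762). GPC1, a heparan sulfate proteoglycan, had 0.39 ± 0.10 (limma adjusted p = 0.0244) from DMSO values of 30.5 and 34.1, near the array median, and its adjusted p was up to 0.201 with 1 array left out. SLC12A8 had 0.34 ± 0.10 (adjusted p = 0.0425), and the call was lost without any 1 of the 5 arrays (adjusted p = 0.0579 to 0.286).

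Among the 10 genes of the transcription factor list, 3 were higher and 1 lower, with a median of 0.079. Whether each of these factors acts on the polyamine genes was not tested. The shares among all genes were 8.22% higher and 9.35% lower. MYC, which is known to drive ODC1 and SRM, read 609, 746 and 681 with gedunin and 1167 and 1301 on DMSO 1 and 2. It fell by 0.87 ± 0.11 (limma adjusted p = 4.97e-04). NFE2L2, the antioxidant factor NRF2, rose by 0.67 ± 0.09 (adjusted p = 7.35e-04), from 334 and 343 to 559, 549 and 508. ATF4 rose by 0.75 ± 0.09 (adjusted p = 2.82e-04), from 2963 and 3024 to 4828, 5201 and 5120.5. MXD1, a partner of MAX, rose by 0.48 ± 0.12 (adjusted p = 0.0209) at intensities of 16.8 to 27.6, below the array median, and its call was lost without DMSO 1, DMSO 2 or gedunin 1 (adjusted p up to 0.148).

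**Figure D4:**
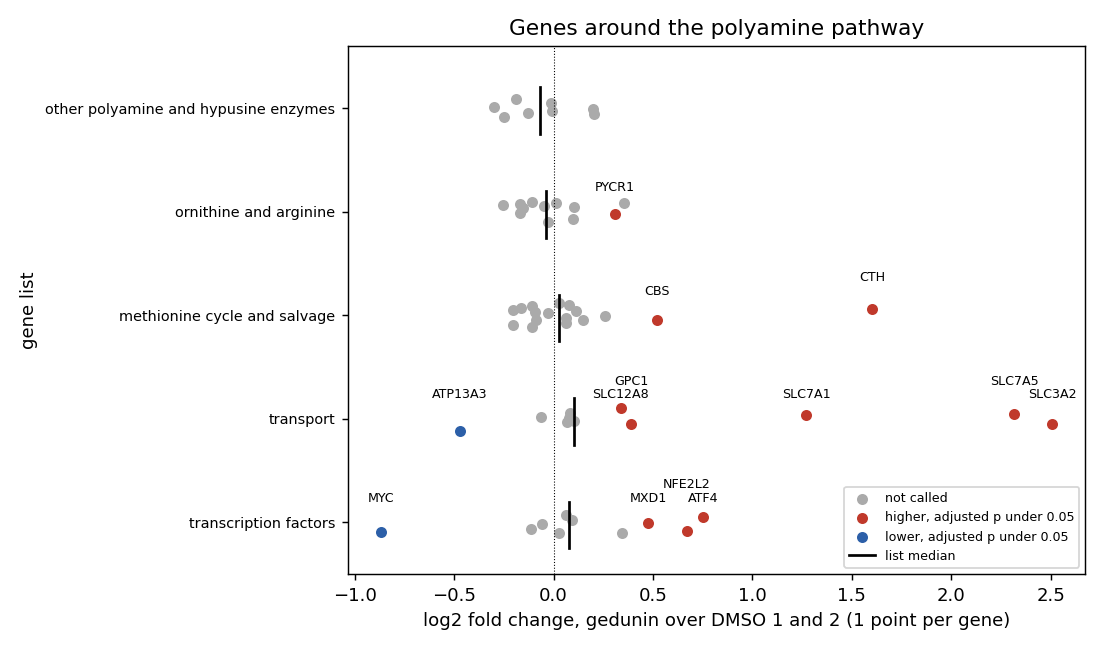
Log2 fold change of gedunin over DMSO 1 and 2 for each gene of 5 lists around the pathway, coloured by call, with list medians as black lines. SLC3A2 (2.51), SLC7A5 (2.32), CTH (1.60) and SLC7A1 (1.27) stand farthest right and MYC (-0.87) farthest left, and 45 of the 58 genes were not called.

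The genes closest to the most changed members were found by the Euclidean distance over the 5 arrays of log2 values set to the mean of DMSO 1 and 2. For ODC1 these were CCDC51 (distance 0.066), the receptor kinase gene ERBB2 (0.098) and the histone gene H2BC8 (0.099), with log2 fold changes of -0.77, -0.82 and -0.81. For AZIN1 (201772_at) they were the HSP70 family gene HSPA1L (0.16), the jumonji-domain gene JMJD1C (0.16) and the deubiquitinase gene CYLD (0.17), with 1.12, 1.03 and 1.12. HSPA1L and H2BC8 have close relatives in the genome, so their probe sets may read more than 1 gene.

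On the array labelled DMSO 3 the members differed from DMSO 1 and 2 in some steps. With 1 array there is no test. ODC1 read 2858 and SMS 209.95 there, 103% and 102% of the mean of DMSO 1 and 2, and SRM read 1516, or 174%. AMD1 stood at 12.1% and 23.9% on its probe sets, SAT1 at 38.1%, 39.8% and 65.6% on the probe sets above the median, OAZ2 at 33.9% and 45.7% and OAZ1 at 72.8% and 67.7%. AZIN1 stood at 76.9% and 109.7%. In all, 6 of the 19 probe sets were at least 2-fold lower on that array and 0 at least 2-fold higher, against 11.0% and 8.13% of all probe sets. The array thus lay close to DMSO 1 and 2 in ODC1 and SMS and far from them in AMD1.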

How the data were processed

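Total RNA labelled as from LNCaP cells was measured on 6 Affymetrix arrays. The deposited values are intensities on a linear scale, made by the authors with RMA per the submitters' processing notes. The RMA version, and which arrays were processed together, are not given in the sources used here. Log2 was taken, and limma (version 3.58.1, R 4.3.3; lmFit, eBayes without trend) compared 3 gedunin arrays with DMSO 1 and 2 over all 22215 probe sets with no filter. P-values were adjusted by the Benjamini-Hochberg method across the whole table, with a threshold of 0.05. The code was tested on simulated data. Precision is limited by how few arrays there are, and the p-values reflect only how far these arrays scatter.

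A platform annotation of 2016 named exactly 1 gene for 19724 probe sets. Entrez identifiers of 19707 matched RefSeq, changing 0 symbols, and 568 probe sets naming several genes were left unnamed. The members and lists were chosen with earlier results of these data known. Named genes were every member, up to 4 called genes per list with the largest change, MYC, NFE2L2, ATF4, MAT2A, MTAP and EIF5A, and the 3 genes nearest to the most changed members. DHPS, OAT, GPC1, SLC12A8 and the transport genes that were not called were added after their values were seen. Alternatives were all 6 arrays, dim probe sets left out, centring on the median or on GAPDH and ACTB, a second quantile normalization, log2 of the value plus 16, eBayes with trend and robust, a replicate block, each array left out, a threshold of 0.01 and the mean of a gene's probe sets.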

Additional observations from a re-analysis of the deposited data

How the results depend on the processing

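The mean of a gene's probe sets was run for the lists only. Under every other alternative that left out the array labelled DMSO 3, the 6 called member probe sets kept their direction and call. With that array included, which is unlike DMSO 1 and 2 in its prostate and leukocyte markers, both AMD1 probe sets turned (0.45 and 0.039 in place of -0.56 and -0.65). That fit called 2 member probe sets lower and 2 higher, 2 list genes higher and 1 lower, and 252 probe sets higher and 60 lower, and in it SLC12A8 turned to -0.91. With 1 of the 5 arrays left out, 2 to 3 member probe sets were higher and 4 lower, 7 to 9 list genes higher and 1 to 2 lower, and 942 to 1536 probe sets higher and 811 to 1528 lower. Centring on GAPDH and ACTB shifted the median of all probe sets to -0.14 and gave 4139 lower probe sets, and 7 higher and 9 lower list genes. Under it the falls of the members were larger (ODC1 -0.93) and SAT1 had 0.089 (210592_s_at). At an adjusted p of 0.01, 1021 probe sets were higher and 848 lower, with 7 list genes higher. With the replicate block, 2931 probe sets were called against 3396. SMOX 210357_s_at passed in it (0.51, limma adjusted p = 0.0228), while GPC1, PYCR1 and SLC12A8 did not (limma adjusted p = 0.0791, 0.0869 and 0.0964). Gedunin 3 stood alone in its block, so it added nothing to these fold changes. They equal those of the fit without gedunin 3 (SMOX 0.51 and ODC1 -0.80 in both). Only 2 numbers could be paired, and deviations of same-numbered arrays from their group means correlated at -0.033 and 0.039. The deviations of 2 DMSO arrays are always equal and opposite, so these values cannot show whether cultures were paired. The samples share a number and nothing more is known. The cause of these differences was not tested. Leaving out 1 array changes both how many arrays there are and which ones, and the 5 refits cannot tell these apart. Dim probe sets, with signal near the array median and no detection calls, limit what the values of SMOX, MXD1, CTH, SLC7A5 and GPC1 show.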
